A study of Mus musculus with 7 samples.

Results

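Cells of the tumor stroma carry surface molecules that hold immune cells in check, and 10 genes for such molecules make up the set described here: Pvr, Nectin2, Nectin3, Cd274, Cd276, Lgals9, Cd47, Cd200, Nt5e and Entpd1. The rule that sets the members is a list of gene names and uses no measured value, but the list was drawn up with earlier results of these data known. 9 of the 10 were found among the 12771 genes of the count table, and Entpd1 was not analysed here. The RNA came from cancer-associated fibroblasts (CAFs), the activated fibroblasts of a tumor. They were sorted from pancreatic tumors that had been grown orthotopically, that is in the pancreas itself, from KPC cells, a mouse pancreatic ductal adenocarcinoma line. In 1 group the KPC cells had received a non-targeting hairpin RNA (shControl, 3 mice, replicates 1, 2 and 4), and in the other a hairpin that silences Brca2 (shBrca2, 4 mice, replicates 1 to 4). Both hairpins were delivered to the cancer cells by lentivirus with puromycin selection, so that the fibroblasts of both groups were those of unmodified C57BL/6 hosts (C57BL/6J in the study's methods), male mice aged 8 weeks, and tumors were taken after 2 to 3 weeks. CAFs were defined by the sort as live cells without CD45, CD31 and EpCAM that carried podoplanin. As the hairpins were in the cancer cells, the level of Brca2 in CAFs is no check of the silencing. Values of single libraries are listed in the order of replicates 1, 2 and 4 for shControl and 1 to 4 for shBrca2.

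These molecules act on different immune receptors. CD155 (Pvr) and the nectins are adhesion molecules of the immunoglobulin family. Several of them bind TIGIT or CD96, which restrain T cells and natural killer cells, and CD155 and Nectin2 also bind the activating receptor CD226. PD-L1 (Cd274) engages PD-1 on T cells, and B7-H3 (Cd276) is a related protein of the B7 family. Galectin-9 (Lgals9) binds glycans on TIM-3 and other receptors, CD47 engages SIRPα on macrophages and restrains engulfment, and CD200 engages an inhibitory receptor of myeloid cells. CD73 (Nt5e) is an enzyme rather than a ligand. It is anchored at the outer cell surface and converts AMP into adenosine, which acts on T cells through adenosine receptors. CD39 (Entpd1) acts before it, on ATP and ADP.

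Total counts ran from 1898679 to 5990579 per library, and the lowest and the highest were both shBrca2 libraries (replicates 3 and 2). The most weakly counted of the 9 genes was Cd274, with 5 to 32 raw counts per library, and Nectin3, Cd200 and Nt5e had 13 or more in each. The fibroblast identity of the sorted cells was checked on 10 marker genes. All 10 were counted in both groups. Their summed levels were 125600 to 144400 normalized counts in shControl and 100500 to 120000 in shBrca2, without overlap. Of the 10 log2 fold changes 8 were below 0 and 2 above it. Dcn and Lum, proteoglycans of the matrix, were called lower in shBrca2 CAFs (DESeq2 adjusted p = 0.069 and 0.015), and the other 8 markers were not called, Pdpn (log2 fold change -0.25) and Pdgfra (0.01) among them. For Pdpn, which encodes the podoplanin of the sort, the groups still did not overlap. It had 599.6 to 670.3 normalized counts in shControl and 457.4 to 589.9 in shBrca2. A gene was called when its DESeq2 adjusted p was under 0.1, its log2 fold change was over 0.5 in either direction and its mean normalized count was over 5. All fold changes are shBrca2 over shControl, and log2 values describe differences between the groups, not levels.

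Nt5e and Pvr rose in CAFs from KPC-shBrca2 tumors, and the other 7 genes were not called in either direction. Of all 12768 genes tested, 3.77% were called higher and 5.27% lower, or 9.04% in either direction. The groups did not overlap for Nt5e and Pvr and overlapped for the other 7, where 17.1% of all genes did not overlap (7.78% higher and 9.29% lower in shBrca2). None of the 9 was lower at an unadjusted p under 0.05, a cut at which the share of all genes was not computed. Among the 9 edgeR made the same number of calls, 2 higher and 0 lower, and over all genes it called 463 higher and 653 lower. The median log2 fold change over the 9 genes was 0.12, and it was 0.0079 over all genes tested. Of the 9 values 5 were above 0 and 4 below it, so the set had no shared direction. The libraries are bulk samples, in which fewer cells of a type and less RNA per cell cannot be told apart.

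**Figure D1:**
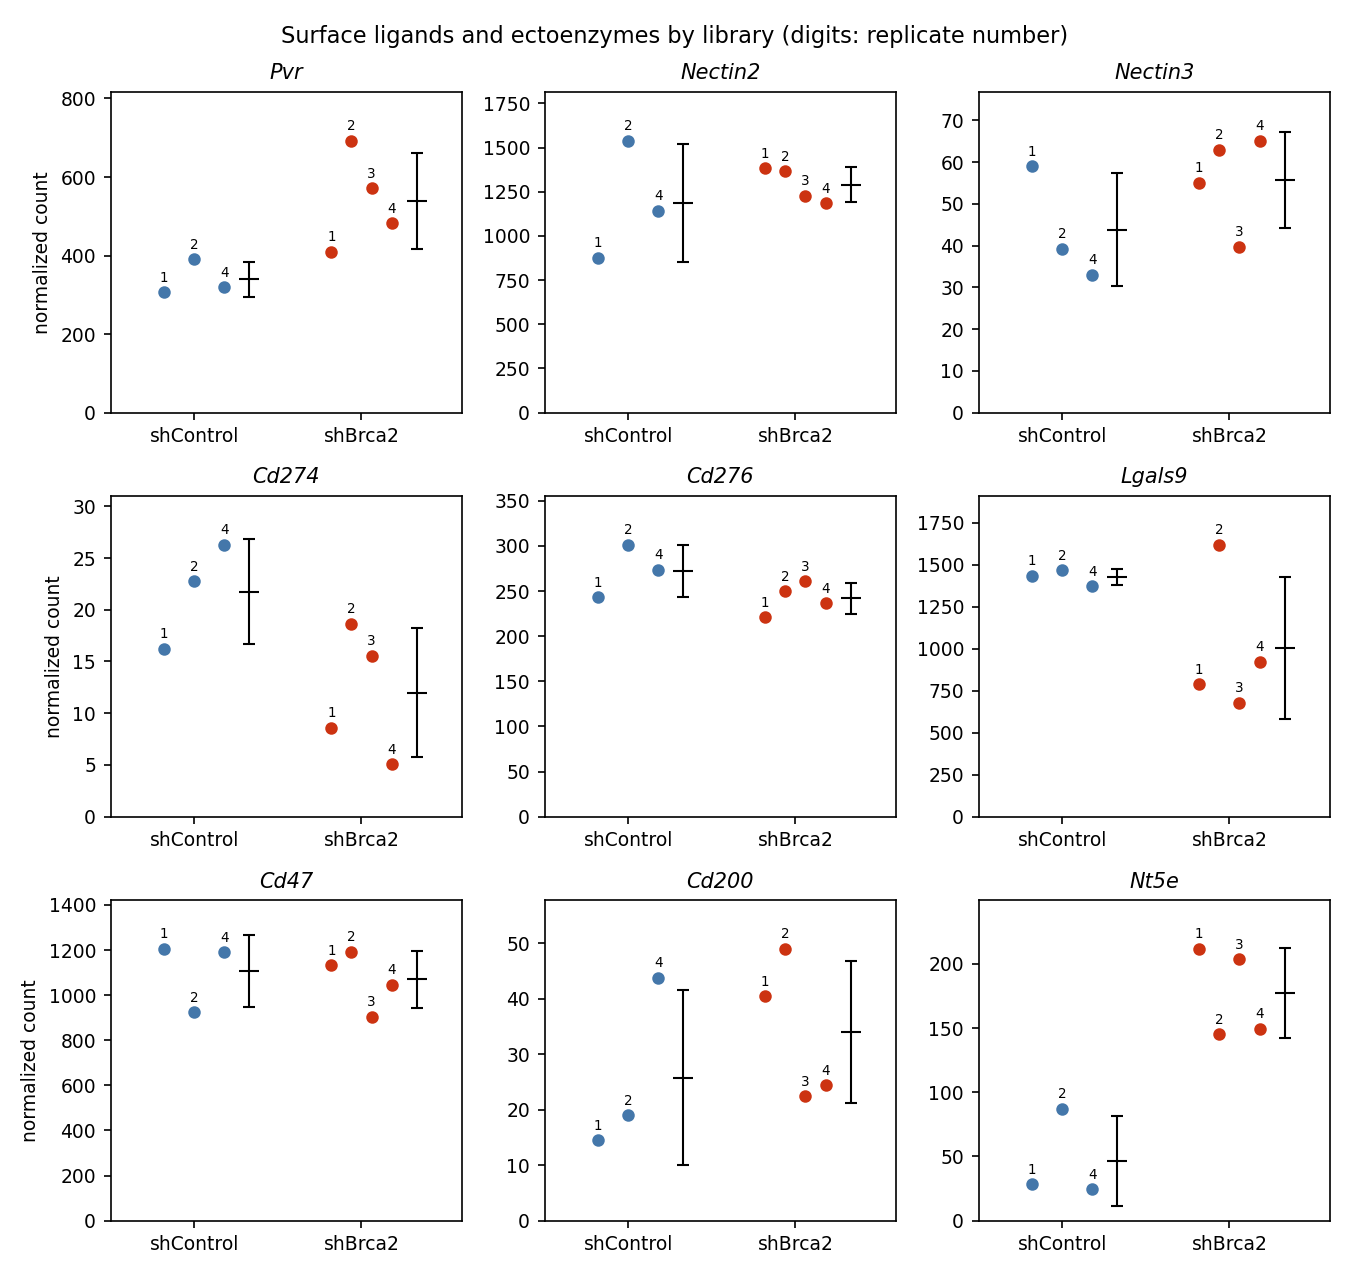
Normalized counts (vertical axis, from 0) of the 9 genes in the 3 shControl (blue) and 4 shBrca2 (red) libraries, with digits for the replicate number and black bars for the mean and SD of each group. The groups are apart for Pvr and Nt5e, and shBrca2 replicate 2 lies above the controls for Lgals9 while the other 3 shBrca2 libraries lie below them.

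Nt5e showed the largest difference of the set. It had 28.2, 87.3 and 24.3 normalized counts in the control libraries. In the shBrca2 libraries it had 212, 145, 204 and 149. The lowest shBrca2 library was above the highest control, and the spread among controls came mostly from replicate 2. The group means were 46.6 ± 35.3 (SD, n = 3) and 178 ± 35.1 (SD, n = 4). The log2 fold change was 1.95 ± 0.38 (SE), a 3.87-fold difference with a 95% interval from 2.31 to 6.47 (DESeq2 adjusted p = 7.9e-05). The call was made in every fit that left out 1 library, and the log2 fold change was 2.75 without shControl replicate 2. Raw counts ran from 25 to 249. No exon of Nt5e is shared with another annotated gene (GENCODE vM39).

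The promoter of Nt5e is shown because this gene had the largest difference, and that of Cd274 for comparison, a gene that was not called and whose value was below 0. Each is the 250 bases before a RefSeq transcript start, read 5′ to 3′ on the plus strand of GRCm38.p6, the reference release that corresponds to the mm10 build named in the submitters' processing notes. Capitals mark GCGTG, which with ACGTG is a core of the sites bound by the oxygen-regulated factor HIF. The Nt5e window is chr9:88327359-88327608, before the first base of the gene at chromosome 9, 88327609 to 88372089. The Cd274 window is chr19:29367188-29367437, and it lies inside the annotated gene span (chromosome 19, 29362107 to 29388095), which holds other starts too.
Nt5e: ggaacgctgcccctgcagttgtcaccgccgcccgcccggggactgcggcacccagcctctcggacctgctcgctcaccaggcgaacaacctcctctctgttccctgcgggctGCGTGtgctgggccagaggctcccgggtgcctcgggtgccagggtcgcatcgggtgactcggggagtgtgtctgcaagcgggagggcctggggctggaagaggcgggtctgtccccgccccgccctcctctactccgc
Cd274: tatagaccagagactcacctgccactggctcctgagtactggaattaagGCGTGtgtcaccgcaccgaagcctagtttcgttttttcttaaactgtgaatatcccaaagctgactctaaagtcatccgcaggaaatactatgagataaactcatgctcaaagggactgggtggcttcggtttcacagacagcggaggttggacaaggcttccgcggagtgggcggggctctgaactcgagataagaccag

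Each window holds 1 GCGTG, which begins 138 bases before the start of Nt5e and 201 bases before that of Cd274. Promoters were found for 8 of the 9 genes, all but Pvr, and ACGTG or GCGTG was present on either strand in 5 of the 8, those of Nectin2, Nectin3, Cd274, Cd47 and Nt5e. Among 32841 mouse promoter windows of the same length 38.6% held one of them. The heat shock element letters GAANNTTC, the same on either strand, were in none of the 8 genes' windows and in 6.7% of all windows. These are matches of letters and were not measured as binding.

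Around Nt5e, genes that handle extracellular purines were examined as a list of 30, of which 24 were tested. Nt5e was the 1 gene called higher, and Entpd2, Slc29a1 and Dpp4 were called lower. At an unadjusted p under 0.05, where the share of all genes was not computed, there were 1 higher and 5 lower. The median log2 fold change was -0.18 over the 24, with 15 values below 0. Entpd2, an ectonucleotidase that cleaves ATP to ADP, had 1703, 1008 and 1549 normalized counts in the control libraries. In the shBrca2 libraries it had 385, 656, 515 and 334, all below the controls. It fell by 1.59 on the log2 scale ± 0.26 (SE) (DESeq2 adjusted p = 4.2e-07). Nt5e and Entpd2, whose product acts upstream of CD73, differed between the groups in opposite directions. Alpl (-0.61), Enpp3 (0.51), Enpp2 (0.43) and Enpp1 (0.25), also on the list, were not called.

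Slc29a1, the equilibrative transporter that carries adenosine across the membrane, averaged 369 ± 62.4 normalized counts in shControl (SD, n = 3) and fell to 165 ± 16.9 (SD, n = 4), by 1.17 on the log2 scale (DESeq2 adjusted p = 1.9e-07). Dpp4, a surface peptidase that in humans also anchors adenosine deaminase, fell from 35.8 ± 11.5 to 9.81 ± 4.79, with 4 to 57 raw counts per library (DESeq2 adjusted p = 0.0021). Ada, the deaminase itself, had a log2 fold change of -0.16 and Adk, the kinase that returns adenosine to AMP, 0.19, and neither was called. The adenosine receptor genes did not differ beyond their errors. Adora2b had a log2 fold change of -0.16 ± 0.20 (SE), and Adora2a, the receptor best known on T cells, -0.20 ± 0.37 (SE). Adora1 averaged 2.86 normalized counts over all libraries, and Adora3 was not analysed here.

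**Figure D2:**
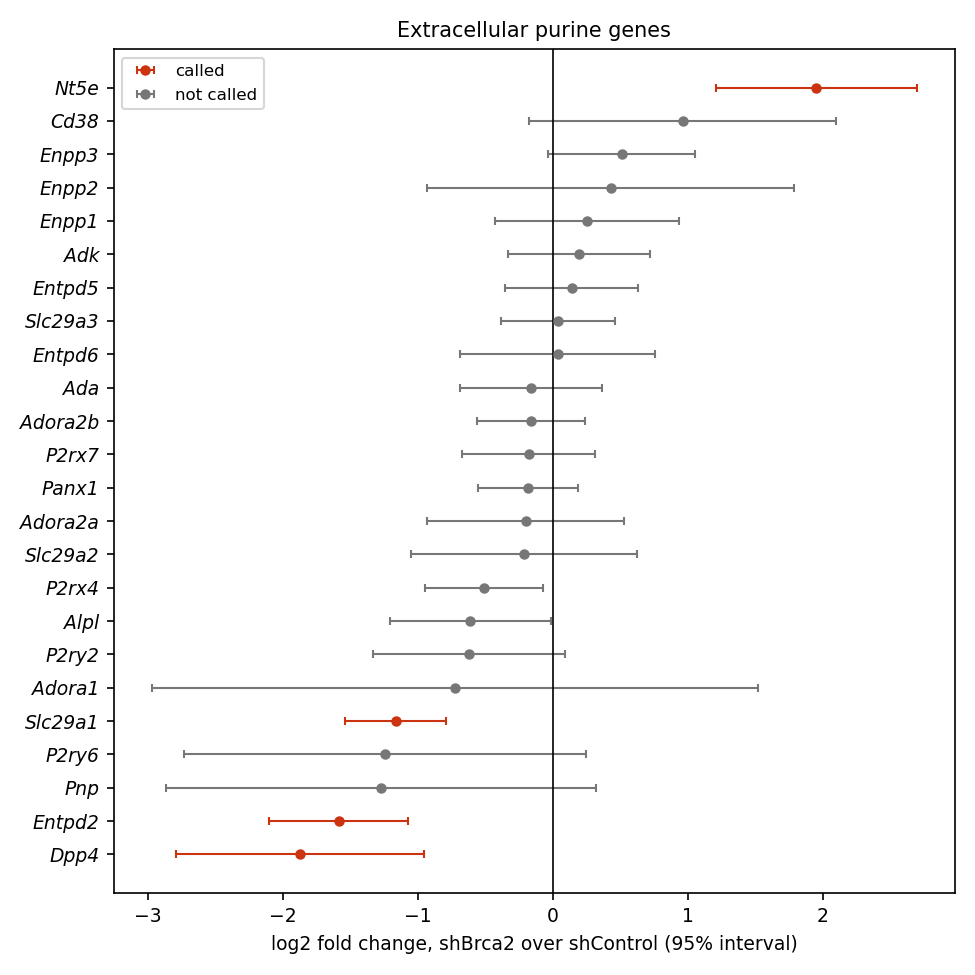
Log2 fold change of shBrca2 over shControl (horizontal axis) with its 95% interval for the 24 tested genes of extracellular purine handling, called genes in red. Nt5e lies at 1.95 on the right, and Slc29a1, Entpd2 and Dpp4 lie between -1.17 and -1.87 on the left.

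Pvr, which encodes CD155, was the second gene of the set that rose. Its levels were 307, 391 and 320.0 normalized counts in the control libraries. In the shBrca2 libraries they were 410, 692, 572 and 482. The groups were apart, but the gap was narrow, between 391 in shControl replicate 2 and 410 in shBrca2 replicate 1. The fold difference was 1.59 with a 95% interval from 1.19 to 2.13 (log2 fold change 0.67, SE 0.21, DESeq2 adjusted p = 0.033). The call ended when shControl replicate 1 (adjusted p = 0.2), shControl replicate 4 (0.17) or shBrca2 replicate 2 (0.13) was left out, with log2 fold changes between 0.52 and 0.63 in these 3 fits. Pvr lies at chromosome 7, 19903578 to 19921143 (GRCm38.p6), and none of its exons is shared with another annotated gene.

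Nectin2, also a ligand of the TIGIT family of receptors, lies on the same chromosome at 19716644 to 19749573. It had 878, 1538 and 1142 normalized counts in the control libraries against 1385, 1366, 1228 and 1184 in the shBrca2 libraries. The controls spanned the whole range of the shBrca2 libraries, with coefficients of variation of 28% and 7.75% in the groups. The log2 fold change was 0.12 with a 95% interval from -0.27 to 0.52 (DESeq2 adjusted p = 0.85), and its sign turned without shControl replicate 1 (-0.05). Nectin3 was weakly counted, at 33.1 to 58.9 normalized counts in shControl and 39.7 to 65.0 in shBrca2. Its log2 fold change of 0.36 had an interval from -0.23 to 0.95, which leaves room for a difference as large as that of Pvr.

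Within each library the ratio of Pvr to Nectin2 counts was taken, since it does not depend on how libraries are scaled. It was 0.35, 0.255 and 0.281 in the control libraries against 0.296, 0.507, 0.466 and 0.407 in the shBrca2 libraries. Only shBrca2 replicate 1 lay within the range of the controls. The mean log2 ratio was -1.77 ± 0.23 (SD, n = 3) in shControl and -1.28 ± 0.34 (SD, n = 4) in shBrca2, 0.49 higher in shBrca2 (p = 0.11 by an exact permutation test, two-sided, over 35 divisions). The smallest p that this test can give here is 0.057.

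Marker lists of other cells were set beside Nt5e and Pvr. Of 12 epithelial markers 7 were tested and 4 called higher, all keratins (Krt7, Krt8, Krt18 and Krt19), of which Krt19 is on the mesothelial list too. Their summed level was 412 to 1166 normalized counts in shControl and 1468 to 2059 in shBrca2, without overlap. Cdh1, which defines epithelial cells, was at 0.854 to 6.33 normalized counts in shControl and 6.91 to 17.3 in shBrca2, and Epcam was not analysed here. Of 20 immune markers 9 were tested, with sums of 289 to 324 and 416 to 454, and Csf1r and C1qa, both macrophage genes, were called higher, while Ptprc, which encodes CD45, was not analysed here. Csf1r alone averaged 113 and 248. The median log2 fold change over the 9 was -0.11, with 5 values below 0 and 4 above it. Cd68 (-0.32) and Lyz2 (-0.26) were among those below 0 and were not called. Tyrobp and Fcer1g, typical of myeloid cells, were below 10 normalized counts in the mean of each group. Of 12 endothelial markers 8 were tested, with sums of 1228 to 1801 and 690.1 to 823.6 that did not overlap, Flt1 called higher and Eng lower. Most of these sums was Eng alone, at 971.8 to 1613 in shControl and 400.7 to 601.5 in shBrca2. Of the 8 log2 fold changes 4 were above 0, those of Flt1, Kdr (0.51), Esam (0.81) and Egfl7 (0.77), and 4 below it. Pecam1, which encodes the CD31 used for the gate, was at 8.26 in shControl and 0.576 in shBrca2, on 0 to 14 raw counts per library. Its groups did not overlap (log2 fold change -3.60, DESeq2 adjusted p = 0.031). It was not called, since its mean normalized count was not over 5. Of 10 mesothelial markers 2 of 10 tested were called higher, with overlapping sums of 1047 to 3548 and 2757 to 3452. Of 9 pericyte markers 2 of 8 tested were called higher, Notch3 and Des, with overlapping sums of 750.0 to 1300 and 1273 to 1680. The largest part of these sums was Des, at 344.2 to 823.6 in shControl and 775.5 to 1129 in shBrca2, with overlap. Of the 8 log2 fold changes 5 were above 0 and 3 below it, those of Kcnj8 (-0.13), Abcc9 (-0.32) and Myh11 (-0.11). Among marker calls, those of Csf1r, Eng, Krt8, Krt18 and Cdh3 were made in each alternative fit. With 1 library left out the adjusted p reached 0.35 for Dcn, 0.11 for Lum, 0.52 for C1qa, 0.15 for Flt1, 0.17 for Krt7, 0.5 for Krt19, 0.14 for Notch3 and 0.25 for Des. The part of these cells in the results for Nt5e and Pvr was not tested.

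Of the 15 genes listed as nectins, nectin-like molecules and their partners 9 were tested. Pvr and Cadm4 were called higher and Cadm3 lower, and the median over the 9 was 0.37. Cadm4, a nectin-like adhesion molecule, had 234, 401 and 307 normalized counts in the control libraries against 1416, 842, 1345 and 1334 in the shBrca2 libraries. Its groups were far apart (log2 fold change 1.98, SE 0.24, DESeq2 adjusted p = 1.9e-11). Cadm3, of the same family, fell from 93.2 ± 24.4 (SD, n = 3) to 29.5 ± 11.1 (SD, n = 4), a log2 difference of -1.62 (DESeq2 adjusted p = 6.4e-05). Afdn (0.37), whose protein links nectins to actin, was not called, nor was Nectin1 (0.12). The receptors TIGIT, CD96 and CD226 are genes of lymphocytes and were not analysed here.

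**Figure D3:**
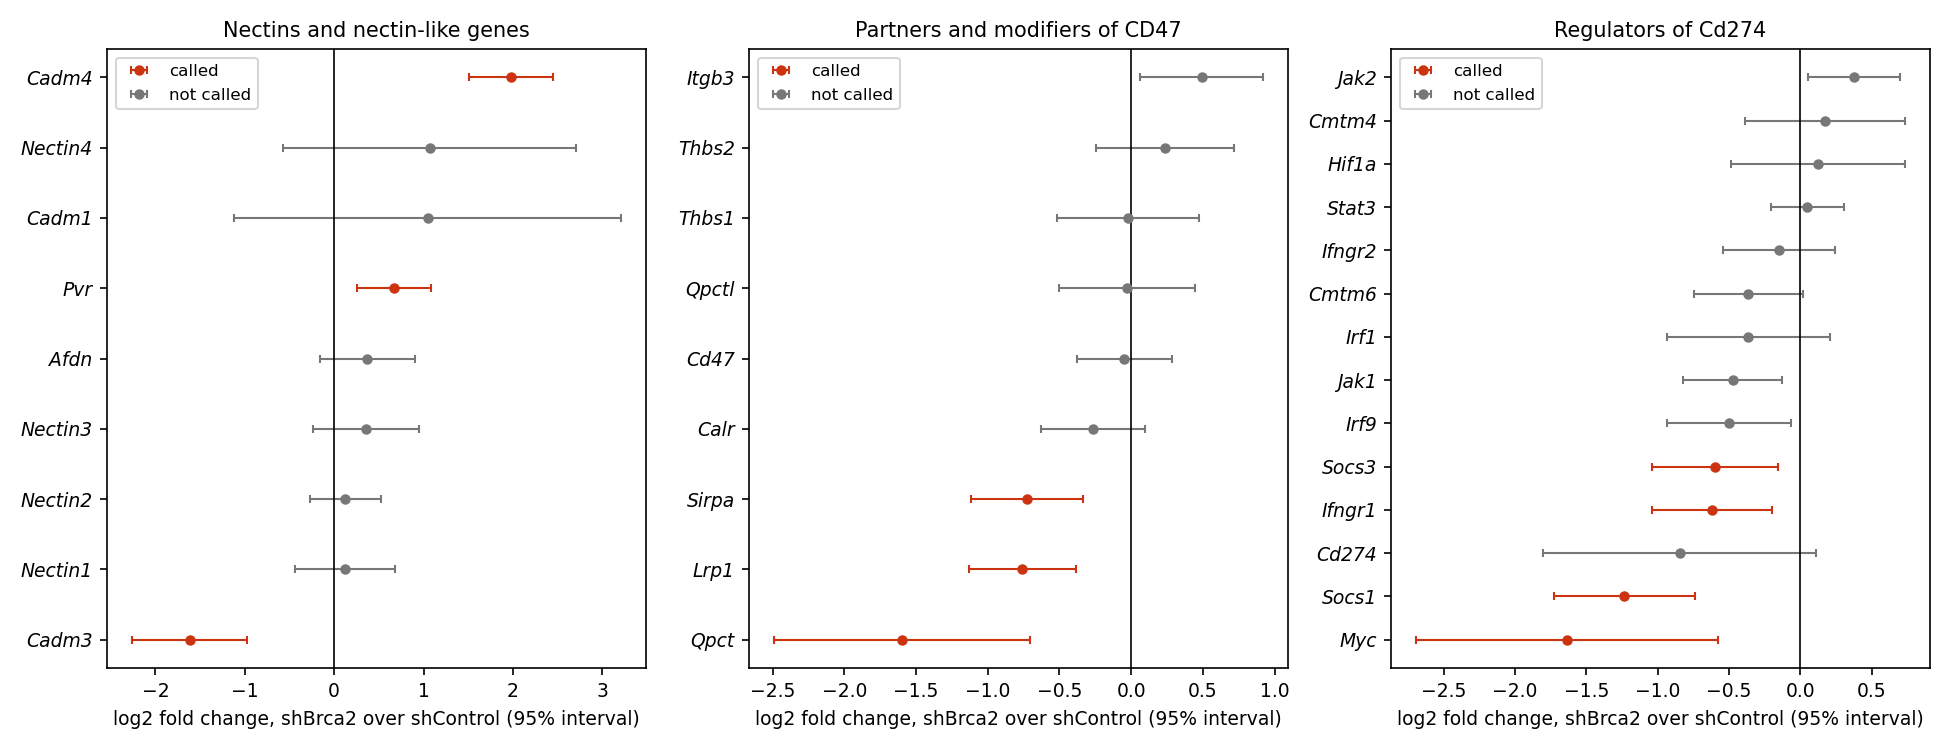
Log2 fold change of shBrca2 over shControl (horizontal axes) with its 95% interval for 9 nectin and nectin-like genes, 9 genes of the CD47 axis and 14 genes of the Cd274 list (Cd274 included), called genes in red. Cadm4 and Pvr are called on the right of the first panel, and all called genes of the other panels lie left of 0.

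Cd274, which encodes PD-L1, was lower in most shBrca2 libraries without passing the test. It had 16.2, 22.8 and 26.3 normalized counts in the control libraries. In the shBrca2 libraries it had 8.61, 18.7, 15.5 and 5.08. 3 of the 4 shBrca2 libraries were below all controls, and replicate 2 lay within the control range. The log2 fold change was -0.85 ± 0.49 (SE), and the interval of the fold difference ran from 0.286 to 1.08 (DESeq2 adjusted p = 0.37). A fold of 1 and one of 0.3 both lie inside it. The coefficient of variation was 23.4% in shControl and 52% in shBrca2. In the annotation 581 bases of its 4081 exon bases are shared with Gm36043 and 219 with Plgrkt, both on the opposite strand. The libraries read 3′ ends, and of its 2 annotated transcript ends 0 lie inside the shared bases. Exon bases are also shared by Cd276 (506 of 5129 with Gm10657), Cd47 (378 of 8768 with Gm4633 and 89 with Gm5486) and Nectin2 (135 of 4029 with Lncob1). Of their transcript ends 0 of 16, 1 of 56 and 0 of 17 lie inside the shared bases. The effect of this sharing on the counts was not tested.

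Genes that are known to control PD-L1 were examined as a list in which 14 were tested, Cd274 included. Of these 4 were called lower and 0 higher by DESeq2, and the median over the 14 was -0.42. The list joins inhibitors of JAK signaling with a chain of the interferon γ receptor, so its counts and median give no direction for Cd274. Of the 14 values 10 were below 0. The 4 above it, none of them called, were Jak2 (0.38), Cmtm4 (0.17), Hif1a (0.12) and Stat3 (0.05). At an unadjusted p under 0.05, a cut at which the share of all genes was not computed, there were 6 lower and 1 higher. By edgeR 3 were called lower and 0 higher. Socs1, an inhibitor of JAK signaling that interferon induces, had 429, 362 and 525 normalized counts in the control libraries against 122, 237, 223 and 165 in the shBrca2 libraries. It fell by 1.24 on the log2 scale (DESeq2 adjusted p = 6.9e-05), and its groups were apart. Myc (-1.64), Ifngr1 (-0.62), which encodes a chain of the interferon γ receptor, and Socs3 (-0.60) were called lower with DESeq2 adjusted p of 0.04, 0.05 and 0.082. These 3 calls were not stable. The adjusted p of Ifngr1 was 0.47 and 0.15 without shControl replicates 1 and 4 and between 0.11 and 0.23 with any 1 shBrca2 library left out. For Myc it was 0.24 without shControl replicate 1 or 4 and 0.19 without shBrca2 replicate 4, and for Socs3 it was 0.14 to 0.38 in each such fit but those without shControl replicate 2 or shBrca2 replicate 3. Irf1, a transcription factor that interferon induces, had a log2 fold change of -0.37 and was not called. Cmtm6, which keeps PD-L1 at the cell surface, had -0.37 (DESeq2 adjusted p = 0.31).

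Cd276, which encodes B7-H3, varied least of the set among the shBrca2 libraries relative to its mean. It had 243 to 301 normalized counts in shControl and 221 to 261 in shBrca2, with coefficients of variation of 10.6% and 7.07%. The log2 fold change was -0.17 with a 95% interval from -0.49 to 0.15 (DESeq2 adjusted p = 0.68). A fall to 0.71 of the control level or a rise of 1.11-fold is the most that this interval allows.

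Lgals9, which encodes galectin-9, divided the shBrca2 libraries. Levels were 1433, 1465 and 1372 normalized counts in the control libraries. Their coefficient of variation of 3.33% was the smallest of the set among controls. In the shBrca2 libraries they were 788, 1617, 677 and 923. Replicate 2 was above every control and the other 3 were below every control. Over all libraries the log2 fold change was -0.50 ± 0.27 (SE) and was not called (DESeq2 adjusted p = 0.32). Without shBrca2 replicate 2 it was -0.84 and the gene was called lower (DESeq2 adjusted p = 0.00021). The other fits with 1 library left out gave log2 fold changes between -0.53 and -0.36 without a call.

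The galectins were examined as a list of 9, of which 7 were tested and 0 called by DESeq2. At an unadjusted p under 0.05, a cut at which the share of all genes was not computed, there were 3 higher and 1 lower. By edgeR 1, Lgals7, was called higher. Lgals1, the most abundantly counted galectin here, was between 17570 and 25110 normalized counts in shControl and between 26180 and 29330 in shBrca2. Its groups did not overlap, but it was not called (log2 fold change 0.42, DESeq2 adjusted p = 0.13). Lgals7 was also apart between the groups, at 75.2 to 464 and 693 to 1230 (log2 fold change 1.67, DESeq2 adjusted p = 0.11). Among proteins described as partners of galectin-9, Cd44 averaged 197 ± 19.2 normalized counts in shControl (SD, n = 3) and rose to 326 ± 34.5 (SD, n = 4), a log2 difference of 0.74 (DESeq2 adjusted p = 0.0012), and P4hb did not differ beyond its error (-0.11, SE 0.16).

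Cd47 had 923.5 to 1205 normalized counts in shControl and 905 to 1193 in shBrca2, nearly the same range. The log2 fold change was -0.05 with a 95% interval from -0.38 to 0.28 (DESeq2 adjusted p = 0.94). Its sign turned in 4 of the alternative fits, each time to a value of 0.03 or less. A difference of more than 1.22-fold upward or to less than 0.769 of the control level is outside the interval. Around CD47, 9 of 10 listed genes were tested, 3 were called lower and 0 higher by DESeq2 and by edgeR, and the median was -0.05. At an unadjusted p under 0.05, where the share of all genes was not computed, there were 3 lower and 1 higher. Lrp1, an endocytic receptor that promotes engulfment, fell by 0.76 on the log2 scale (DESeq2 adjusted p = 0.0023) with non-overlapping groups. Sirpa, the receptor of CD47, fell from 387 ± 58.9 (SD, n = 3) to 234 ± 41.7 (SD, n = 4), with log2 fold change -0.73 (DESeq2 adjusted p = 0.0071). Qpct, a glutaminyl cyclase, was called lower (-1.60, DESeq2 adjusted p = 0.011) with overlapping groups and not without shControl replicate 1 (adjusted p = 0.15). Qpctl, the cyclase that modifies CD47, had a log2 fold change of -0.03, and Thbs1, a secreted CD47 ligand, -0.02.

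Cd200 was low and uneven in both groups. It had 14.5, 19.0 and 43.8 normalized counts in the control libraries, and 40.4, 49.0, 22.5 and 24.4 in the shBrca2 libraries. The highest control, replicate 4, lay above 3 of the 4 shBrca2 libraries. The log2 fold change was 0.43 with a 95% interval from -0.44 to 1.30 (DESeq2 adjusted p = 0.71). Without shControl replicate 4 it was 1.07, which was not called either (adjusted p = 0.25).

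**Figure D4:**
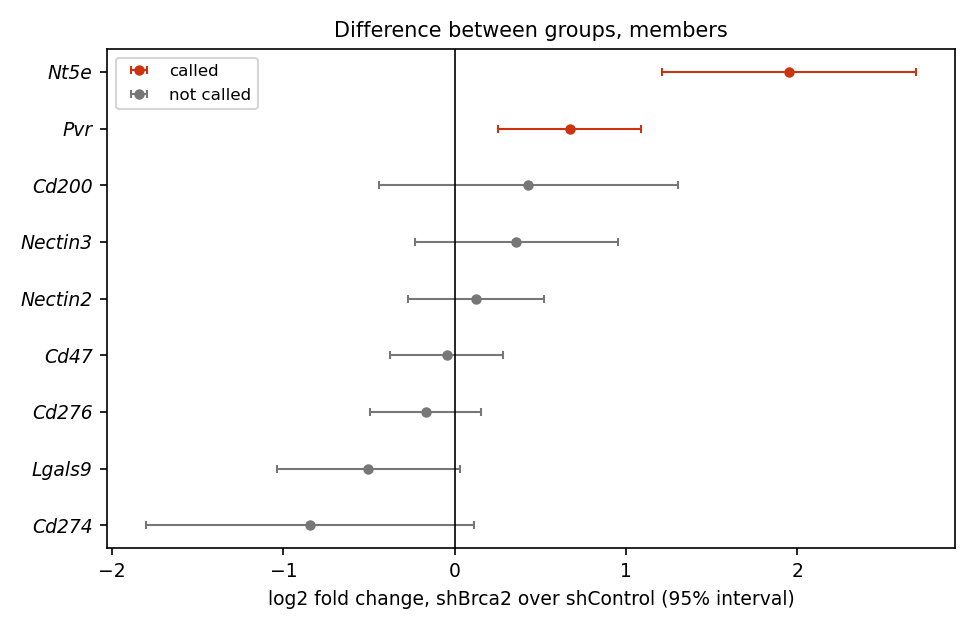
Log2 fold change of shBrca2 over shControl (horizontal axis) with its 95% interval for the 9 genes of the set, called genes in red. The intervals of Nt5e and Pvr lie right of 0 and those of the other 7 genes include 0, with the widest for Cd274 and Cd200.

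A further 26 genes for inhibitory molecules outside the set were listed, of which 16 were tested. Of these 2 were called higher and 0 lower by DESeq2 and by edgeR, with a median log2 fold change of 0.15. At an unadjusted p under 0.05, where the share of all genes was not computed, there were 4 higher and 0 lower. Arg1, the arginase that depletes arginine, had 27.3, 75.9 and 16.5 normalized counts in the control libraries against 143, 128, 140 and 87.4 in the shBrca2 libraries. As for Nt5e, replicate 2 was the highest of the controls and the groups were apart (log2 fold change 1.67, SE 0.41, DESeq2 adjusted p = 0.0029). Vtcn1, which encodes the B7 family member B7-H4, rose from 4.45 ± 0.9 (SD, n = 3) to 16.6 ± 6.13 (SD, n = 4), on 4 to 44 raw counts per library (DESeq2 adjusted p = 0.017), and was not called without shControl replicate 1 (adjusted p = 0.16) or shBrca2 replicate 2 (0.19). Vsir, which encodes VISTA, and H2-T23, the nonclassical ligand of NKG2A, had log2 fold changes of -0.35 and -0.24 and were not called.

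**Figure D5:**
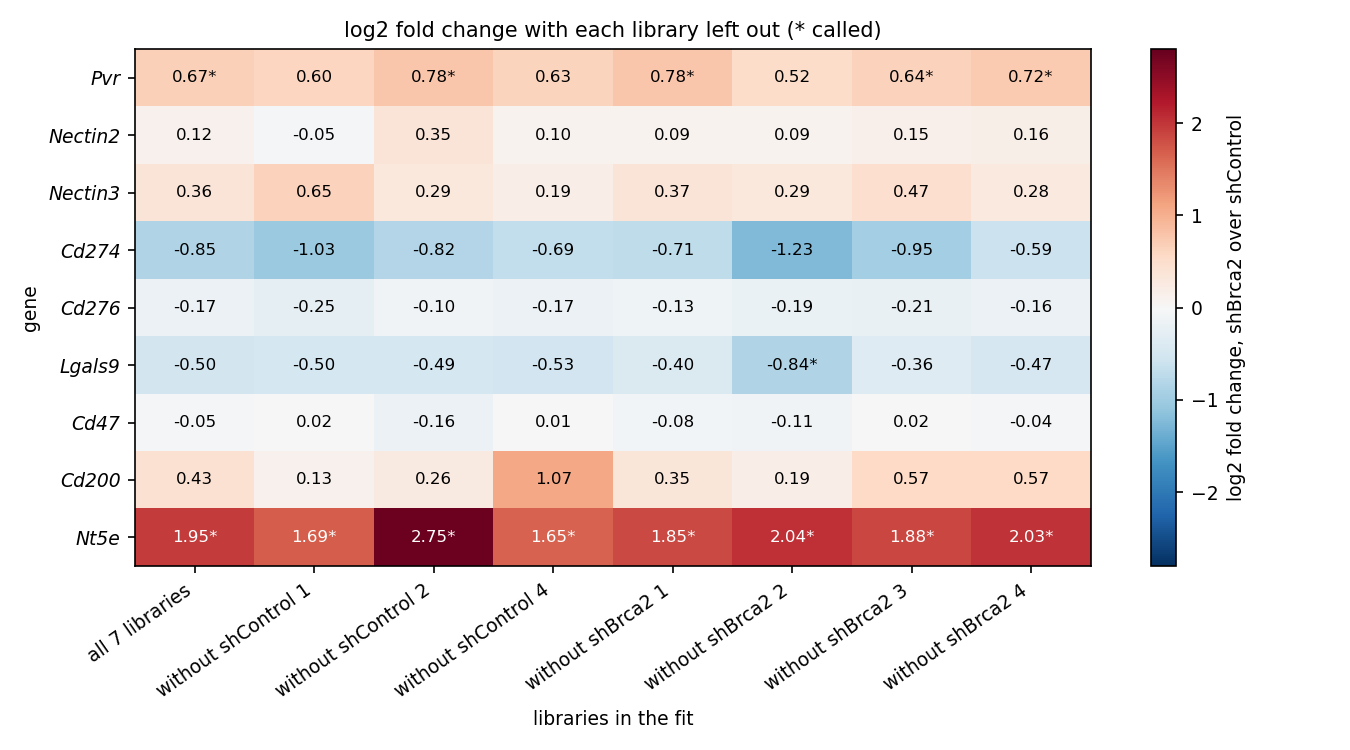
Log2 fold change of shBrca2 over shControl (color and printed value) for the 9 genes of the set (rows) with all 7 libraries and with each library left out (columns), where an asterisk marks a called gene. Nt5e is called in all 8 columns, Pvr in 5, and Lgals9 in the column without shBrca2 replicate 2.

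Genes with levels most like those of Pvr and Nt5e across the 7 libraries were taken from the 6728 others with a mean normalized count over 50, by Pearson's r of log2 normalized counts. For Pvr they were Farsa (0.934), Vegfa (0.930), Depdc5 (0.930), Tmem88 (0.921) and Atp6v1f (0.916). For Nt5e they were Nudt14 (0.997), Myo1e (0.982) and D630010B17Rik (0.982). These values describe the likeness of 7 points that share the difference between the groups. Vegfa, the hypoxia-regulated angiogenic factor, was called higher (log2 fold change 0.89, DESeq2 adjusted p = 0.0013), whereas Farsa, a subunit of a tRNA synthetase, was not (0.46, adjusted p = 0.14).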

How the data were processed

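RNA of sorted CAFs was measured by a variant of MARS-seq, which reads 3′ ends. The authors deposited raw counts per gene symbol, 1 column per library, whole and not normalized. The submitters' processing notes name bcl2fastq, cutadapt, STAR 2.4.2a, HTSeq, DESeq2 and mm10. Strand handling and collapsing of molecular barcodes are not given in the sources used here, so counts may include PCR copies.

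DESeq2 1.42.0 (R 4.3.3) was fitted to all genes and all 7 libraries by its likelihood ratio test for group, after median-of-ratios scaling, as the study's methods describe. Normalized counts are counts divided by those factors. 3 genes received no p. 95% intervals are normal intervals from the standard error (SE). P-values were adjusted over all genes tested, by Benjamini-Hochberg. The ratio used counts plus 1 (scipy 1.17.1). In simulated counts for 12771 genes, 200 genes above a floor of mean count were given a difference, fewer than the 1154 called in the data. The test recovered 99% of genes given a log2 difference of 2 and 67% of those given 1, and 14% of calls were false. The false share depends on how many genes are changed. Genes as weakly counted as Cd274 and Vtcn1 are not covered by these rates.

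The alternatives were the Wald test, edgeR 4.0.16 with TMM, TMM size factors in DESeq2, a low count filter (10 counts in 3 libraries), no independent filtering, an adjusted p under 0.05, a replicate block and leaving out each library. The libraries of a group came from separate mice. The lowest chi-square per gene of a pair was 3.01 (shBrca2 replicates 1 and 4), where other shBrca2 pairs had 6.60 to 11.65. PCR copies and depth alter this value, so it cannot show that libraries are independent. For shControl replicate 2 it was 12.46 and 12.89 against shBrca2 replicates 2 and 3, and 14.09 and 14 against shControl replicates 1 and 4. The part of this likeness in the results was not tested. The 10 genes and all lists were chosen with earlier results of these data known. Named genes were the set, at most 6 called genes per list by adjusted p, the receptors, and the genes most like Pvr (5) and Nt5e (3). List genes named without a call were picked after their values were seen. Promoters and gene positions are from RefSeq (GRCm38.p6), and exon sharing is from GENCODE vM39 (GRCm39, lengths only). 1 gene of the Cd274 list is not reported here and was left out of its counts.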

Additional observations from a re-analysis of the deposited data

Results flagged for a closer look

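In groups of 4 libraries, a value was singled out when its gap to the nearest other value exceeded Dixon's limit as a share of the range. Of 42 genes examined in the shBrca2 group 4 met this, where chance gives about 1 in 20, and in each of the 4 it was shBrca2 replicate 2, the deepest library. Cadm4 was lowest there at 842 normalized counts, with the other libraries at 1334 to 1416. Cadm3 was highest there at 46.0, with the others at 22.5 to 26.4. Qpct was highest at 76.4, with the others at 27.4 to 28.4. Notch3 was lowest at 72.3, with the others at 122 to 128. Lgals9, whose call depended on the same library, did not reach the limit.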

How the results depend on the processing

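Nt5e was called in all 14 alternatives, at log2 fold changes between 1.65 and 2.75, its highest adjusted p being 0.011 by edgeR. Pvr was called in 10 of 14 and missed with the replicate block (log2 fold change 0.61, adjusted p = 0.18) and without shControl replicate 1, shControl replicate 4 or shBrca2 replicate 2. Its range over fits with 1 library left out was 0.52 to 0.78 (adjusted p 0.019 to 0.2). The members called higher thus numbered 1 with the block and 1 to 2 with a library left out, and those called lower 0 to 1, the 1 being Lgals9 without shBrca2 replicate 2. Lgals9 ranged from -0.84 to -0.36 with a library left out. The sign of Nectin2 (-0.05 to 0.35) turned without shControl replicate 1 (-0.0536). That of Cd47 (-0.16 to 0.02) turned without shControl replicate 1 (0.0157), shControl replicate 4 (0.00692) and shBrca2 replicate 3 (0.0216), and with the block (0.0298). The cause was not tested. Over all genes 242 were called higher and 322 lower with the block, which leaves out shBrca2 replicate 3, and 261 to 610 higher and 354 to 695 lower with a library left out. Same-numbered libraries did not deviate together (correlations of -0.07, -0.10 and -0.10 over genes, and no library correlated best with its own number), so the numbers were not taken as pairs. The ratio of Pvr to Nectin2 stayed above 0 in all 9 alternatives, at 0.39 to 0.65 (0.43 with the block, exact p = 0.5). The planned ratio of Nt5e to Entpd1 was not run, since Entpd1 was not analysed here. Of 460 checks of 33 other named genes, 390 kept their call and 70 lost it, and none changed direction. Cd274 rests on 5 to 32 counts per library, and the part of depth in its wide interval was not tested.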

Other observations

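Ligands that stimulate rather than restrain lymphocytes moved in both directions. Of 18 listed genes 10 were tested, 2 were called higher and 2 lower, and the median log2 fold change was -0.0095. Raet1e, a ligand of the activating receptor NKG2D, had a mean of 15.1 ± 2.91 in shControl (SD, n = 3) and rose to 45.2 ± 9.5 (SD, n = 4), with non-overlapping groups (log2 fold change 1.63, DESeq2 adjusted p = 0.00026). Vcam1, which binds integrins of lymphocytes, went up from 199 ± 13.4 to 392 ± 51.2 (log2 fold change 0.98, DESeq2 adjusted p = 5.2e-06). Icam1, an adhesion molecule for the integrin LFA-1, was called lower (-0.76, DESeq2 adjusted p = 0.054), but not without shControl replicate 1 (adjusted p = 0.14), shControl replicate 4 (0.33), shBrca2 replicate 1 (0.23) or shBrca2 replicate 4 (0.2). Tnfsf14, which encodes the cytokine LIGHT, had 16.2, 8.86 and 10.7 normalized counts in the control libraries against 0, 2.33, 1.73 and 0 in the shBrca2 libraries. It was called lower (DESeq2 adjusted p = 0.0017), but its mean count was too low for a call without shControl replicate 1 or 4. Tnfrsf9, which encodes the costimulatory receptor 4-1BB and was listed among receptors here, was called higher (log2 fold change 2.31, DESeq2 adjusted p = 0.094). That call ended without shControl replicate 1 (adjusted p = 0.38), shControl replicate 4 (0.32), shBrca2 replicate 1 (0.23), shBrca2 replicate 2 (0.18) or shBrca2 replicate 4 (0.15).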
